A study of Mus musculus with 2 samples.

Results

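The tubulin genes of developing neurons described here are 9: the α-tubulin genes Tuba1a, Tuba1b and Tuba1c and the β-tubulin genes Tubb2a, Tubb2b, Tubb3, Tubb4a, Tubb5 and Tubb6, of 21938 protein-coding genes in the GENCODE M21 basic annotation. They were selected on measured values, their DNase I peaks and hotspots in these libraries: a peak belonged to a promoter if its midpoint lay within 1 kb of a start of the gene, and to the distal set if it lay within 50 kb of that start and over 1 kb from every annotated start. In all, 206 of 263679 peaks in replicate 1 and 197 of 148804 peaks in replicate 2 lay within 50 kb of these genes. Of 81031 distal peaks that both libraries share across the genome, 81 lay near them. The windows of Tuba1a, Tuba1b and Tuba1c join into 1 region and those of Tubb2a and Tubb2b into another, so the 9 genes lie in 6 regions.

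DNase-seq marks chromatin open enough for DNase I to cut. It was applied to the hindbrain of mouse embryos of strain B6NCrl at 14.5 days, an untreated tissue with males and females pooled. The single group has 2 biological replicates, separate tissue samples listed under the same donor entry, and no other tissue, stage or treatment. No contrast between conditions exists, and every value below is a description of these 2 libraries, with no test.

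Microtubules are polymers of α- and β-tubulin heterodimers, and vertebrates carry several genes for each. The isotypes are nearly identical in their folded core and differ mostly in their acidic tails, which enzymes modify. Neurons need large amounts of tubulin to build axons and dendrites and to migrate. Tuba1a is the main α-tubulin of young neurons, Tubb2a, Tubb2b and Tubb3 are β-tubulins rich in neurons, and Tubb3 is used as a neuronal marker. Tuba1b and Tubb5 are expressed in dividing cells as well as in neurons, Tubb4a is enriched in the brain and in myelinating oligodendrocytes, and Tuba1c and Tubb6 are more prominent outside the brain. In humans, mutations of TUBA1A, TUBB2B, TUBB3 and TUBB cause malformations of the brain, and mutations of TUBB4A cause a disorder of myelin.

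The bases under the promoter peaks come first, as a description, and no measure of likeness between them was computed. Each line is the 150 bp replicate 1 peak nearest the start of the gene that overlaps a replicate 2 peak, read from the RefSeq assembly GRCm38.p6 (mm10) on the strand of the gene, 5′ to 3′. The peaks lie at chr15:98953596-98953745 (Tuba1a, minus strand), chr15:98934496-98934645 (Tuba1b, minus), chr15:99029776-99029925 (Tuba1c, plus), chr13:34077996-34078145 (Tubb2a, minus), chr8:123411376-123411525 (Tubb3, plus), chr17:57087576-57087725 (Tubb4a, minus) and chr17:35838256-35838405 (Tubb5, minus). Capitals mark matches to 12 short motifs, and Tubb2b and Tubb6 are named only.
Tuba1a: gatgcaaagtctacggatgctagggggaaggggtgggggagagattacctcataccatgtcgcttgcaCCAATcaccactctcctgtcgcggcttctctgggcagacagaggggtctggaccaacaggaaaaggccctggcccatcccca
Tuba1b: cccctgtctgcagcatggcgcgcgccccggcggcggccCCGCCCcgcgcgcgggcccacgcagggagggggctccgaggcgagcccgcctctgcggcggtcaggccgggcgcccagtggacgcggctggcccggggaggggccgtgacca
Tuba1c: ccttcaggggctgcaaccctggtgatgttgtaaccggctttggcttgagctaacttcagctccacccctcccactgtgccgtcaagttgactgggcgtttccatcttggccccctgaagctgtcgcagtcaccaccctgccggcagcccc
Tubb2a: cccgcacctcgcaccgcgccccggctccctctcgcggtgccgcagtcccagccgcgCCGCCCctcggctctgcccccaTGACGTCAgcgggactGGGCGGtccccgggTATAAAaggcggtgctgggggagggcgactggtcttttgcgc
Tubb3: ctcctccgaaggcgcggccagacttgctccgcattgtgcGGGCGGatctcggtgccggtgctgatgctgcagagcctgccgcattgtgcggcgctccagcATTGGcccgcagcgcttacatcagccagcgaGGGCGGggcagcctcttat
Tubb4a: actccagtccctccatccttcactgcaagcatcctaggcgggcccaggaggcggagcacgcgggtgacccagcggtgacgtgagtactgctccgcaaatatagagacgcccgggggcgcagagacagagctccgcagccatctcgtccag
Tubb5: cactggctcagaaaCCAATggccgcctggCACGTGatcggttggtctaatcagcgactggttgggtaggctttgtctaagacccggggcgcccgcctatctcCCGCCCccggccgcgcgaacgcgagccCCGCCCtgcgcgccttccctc

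The motifs were searched on both strands. The core promoter motifs were TATAAA, to which the TATA-binding protein attaches, CCAAT, the site of the NF-Y factor, and GGGCGG, the site of Sp factors. Motifs of further factor families were the E-box CACGTG, the proneural E-box CAGCTG, the proneural E-box CAGATG, the homeodomain motif TAATTA, the POU octamer ATGCAAAT, the NFI motif TTGGCA and the RFX motif GTTGCCA. The cAMP response element TGACGTCA and the NRF1 motif GCATGCGC completed the 12. CCAAT read in reverse can overlap TTGGCA, and TTGGCA can overlap GTTGCCA read in reverse. The GC box, GGGCGG, stood in 4 of these 7 peaks (Tuba1b, Tubb2a, Tubb3 and Tubb5) and in 38.1% of 30691 shared promoter peaks of the genome. CCAAT stood in 3 of the 7 (Tuba1a, Tubb3 and Tubb5), against 21.5% of shared promoter peaks. Tubb2a alone among the 7 held a TATA box, found in 2.65% of shared promoter peaks, and a cAMP response element, found in 1.79%. Tubb5 held CACGTG, which 5.63% of shared promoter peaks hold. None of the 7 held the other motifs, whose shares among shared promoter peaks were 10.2% for CAGCTG, 7.62% for CAGATG, 1.597% for TAATTA, 0.762% for ATGCAAAT, 7.19% for TTGGCA, 2.75% for GTTGCCA and 2.39% for GCATGCGC. A match is a run of letters and not evidence of binding, and its absence says only that these letters are not in these 150 bases.

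Among the α-tubulin starts, Tuba1b stood apart in base composition, and Tuba1a and Tuba1c were close to each other. The Tuba1b peak had 84% G and C with 23 CpG dinucleotides, the Tuba1a peak 58.7% with 4 and the Tuba1c peak 61.3% with 5, against a median of 62.0% and 10 CpG over all shared promoter peaks. Among the β-tubulin peaks, Tubb2a had 74.7% G and C, Tubb5 68.0%, Tubb3 67.3% and Tubb4a 64.7%. For 4 of the 7 genes RefSeq places the start over 100 bp further downstream than the GENCODE start used here: by 202 bp at Tuba1a, 182 bp at Tubb4a, 175 bp at Tuba1b and 129 bp at Tubb3. The strongest promoter peak of Tuba1a lay at −170 bp of the RefSeq start in replicate 1 and −190 bp in replicate 2. That of Tubb4a, which lies inside the first exon in GENCODE, lay at −51 and −31 bp of the RefSeq start in replicates 1 and 2.

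Every one of the 9 genes had an open promoter in both libraries. A promoter peak shared by both libraries stood at 9 of 9 genes, and at 64.6% of all protein-coding genes. A hotspot, a longer stretch of enriched cutting with a q-value, stood at the promoter of 9 of 9 genes in both libraries, and at 65.5% of all protein-coding genes. In 6 of 9 genes, Tuba1a, Tuba1b, Tubb2a, Tubb2b, Tubb3 and Tubb5, the strongest promoter peak was at or above the 95th percentile of peak scores in both libraries, as in 31.7% of protein-coding genes. The genes were chosen with these peaks in view, so nothing is read from the counts against the shares.

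The promoter of Tuba1a, which supplies most α-tubulin in young neurons, scored high among all peaks of either library. Its strongest peak scored 145 in replicate 1 and 116 in replicate 2, at the 99.6th and 98.7th percentiles of all peaks. Ranked only among genes with a shared promoter peak, it stood at the 94.0th percentile in replicate 1 and the 86.5th in replicate 2. It stood in the first exon, 32 bp past the GENCODE start at chr15:98953703 in replicate 1 and 12 bp past it in replicate 2. A continuous hotspot covered 2984 bp around the start in replicate 1 and 3923 bp in replicate 2, and within it replicate 1 had 5 promoter peaks and replicate 2 had 3. The score is the authors' value per peak, a whole number from 1 to 150 that both libraries use, and what it counts is not given in the sources used here. It is therefore read only within a library.

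Tuba1b, the widely used α-tubulin next to it, had a pair of strong peaks. The first lay at −6 bp of the start at chr15:98934565, with a score of 144 in replicate 1 and 112 in replicate 2. A second peak at 554 bp, in the first intron, scored 140 in replicate 1 and 117 in replicate 2, so that the order of the pair differed between the libraries. Tuba1c, the α-tubulin at the far end of the region, was much weaker: at −40 bp of its start at chr15:99029891 its peak had 51 in replicate 1 and 25 in replicate 2. A stronger Tuba1c peak lay in the first exon, at 340 bp in replicate 1 and 380 bp in replicate 2, with scores of 74 and 41. These stand at percentiles 78.1 and 68.6, against medians of 97.08 and 94.96 for the strongest promoter peak of all genes that have one.

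Among the neuronal β-tubulins, Tubb2b and Tubb3 reached the highest scores of the 9 genes in replicate 1. The strongest Tubb2b peak, upstream of its start at chr13:34130354, scored 146 in replicate 1 and 123 in replicate 2. A hotspot of 3169 bp with the same ends in both libraries covered the Tubb2b start, and its promoter had 4 peaks in replicate 1 and 5 in replicate 2. Both ends of that hotspot border short sequence that occurs elsewhere in the genome, as described below. At the Tubb3 start, chr8:123411424, a peak also reached 146 in replicate 1, and 113 in replicate 2. Tubb2a, whose start lies at chr13:34078007, scored lower than both, with 126 in replicate 1 and 99 in replicate 2, at the 96.5th and 95.5th percentiles. Ranked only among genes with a shared promoter peak, it stood near the middle, at the 43.0th percentile in replicate 1 and the 54.7th in replicate 2.

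The remaining β-tubulins spread over a wide range. Tubb5, which dividing cells also use, scored 141 and 119 at −25 bp of its start at chr17:35838306. Tubb4a, with a start at chr17:57087782, scored 135 in replicate 1, at the 97.9th percentile, and 91 in replicate 2, at the 94.0th. Among genes with a shared promoter peak these were the 62.1th and 44.2th percentiles. Tubb6 was the lowest of the 9, with 62 in replicate 1 and 38 in replicate 2, at the 68.4th and 64.9th percentiles of all peaks. Ranked only among genes with a shared promoter peak, it stood at the 4.95th percentile in replicate 1 and the 9.14th in replicate 2. The gap is clear in both libraries: Tuba1c and Tubb6 are the 2 lowest genes in each, and the next gene up, Tubb2a in replicate 1 and Tubb4a in replicate 2, stands at 126 and 91.

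Hotspot q-values set Tuba1c and Tubb6 apart in replicate 2 only. The −log10 q-value of a hotspot is capped at 100 in the deposited lists, and no uncapped value exceeds 6. At 7 of 9 genes the promoter had a hotspot at the cap in both libraries. The exceptions were Tuba1c, capped in replicate 1 but with a highest value of 4.17 in replicate 2, and Tubb6, capped in replicate 1 and at 3.41 in replicate 2. At Tubb6 the capped hotspot of replicate 1 lay downstream, over the second exon, and the hotspot over the start itself had 6.

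**Figure D1:**
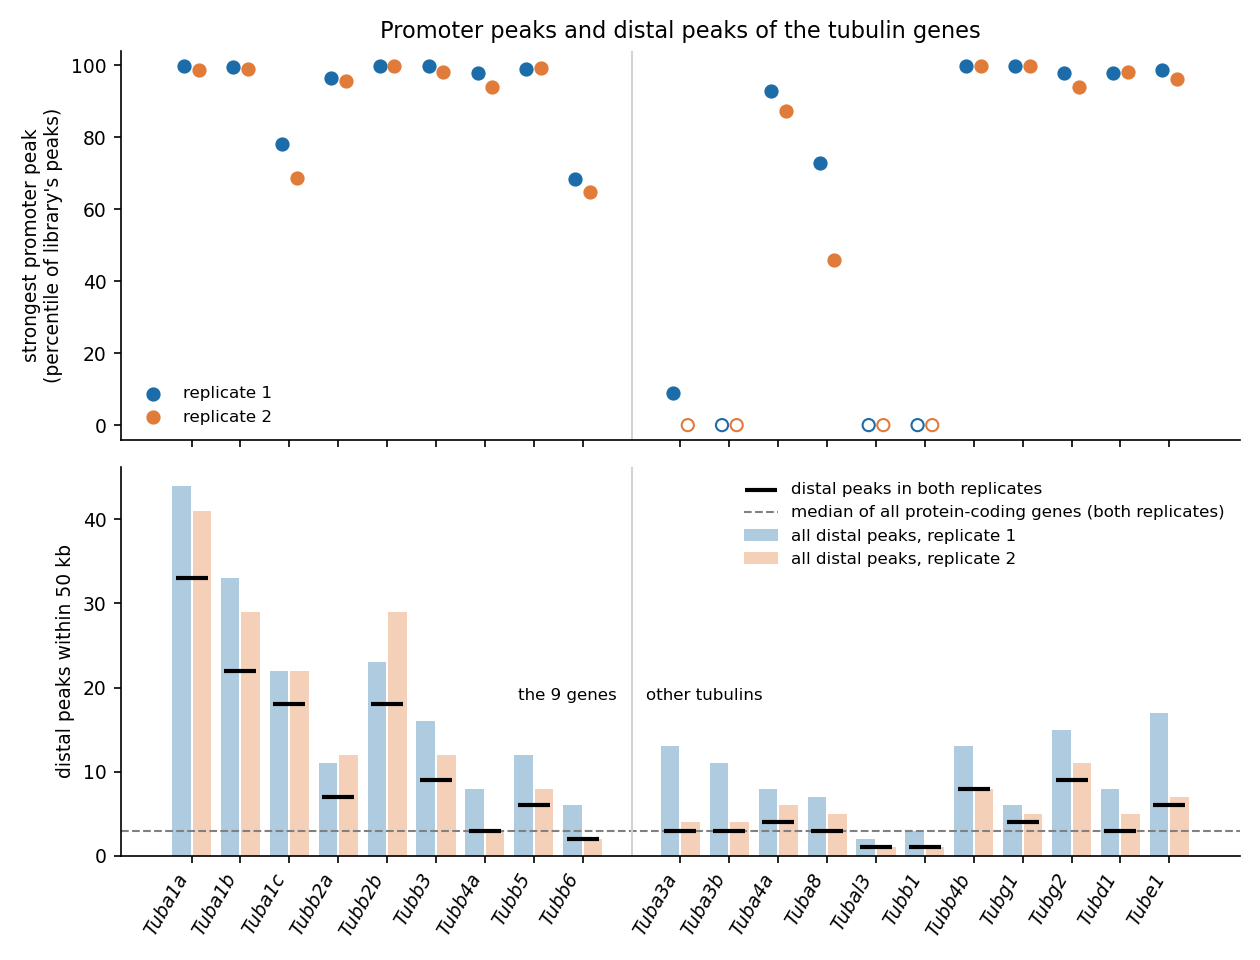
Upper panel: percentile of the strongest promoter peak among all peaks of its library, for replicate 1 (blue) and replicate 2 (orange), with open circles at 0 where no promoter peak was called. Lower panel: distal peaks within 50 kb of each gene in each library (bars), those in both (black marks) and the median of 3 shared peaks over all protein-coding genes (dashed line). The 9 genes stand left of the grey line and 11 other tubulin genes right of it; Tuba1c and Tubb6 lie below the other 7 in the upper panel, and Tuba1a has the most distal peaks.

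Distal peaks were dense around Tuba1a and Tubb2b and sparse around Tubb4a and Tubb6. Within 50 kb, Tuba1a had 33 shared distal peaks, Tuba1b 22, Tuba1c 18 and Tubb2b 18, against a median of 3 and a 95th percentile of 11 over all protein-coding genes. Tubb3 had 9, Tubb2a 7 and Tubb5 6, between that median and 95th percentile. Tubb4a had 3 and Tubb6 had 2, at and below the median. Replicate 1 alone gave more for 5 genes, by over 1.5 times: 16 for Tubb3, 12 for Tubb5, 11 for Tubb2a, 8 for Tubb4a and 6 for Tubb6, against a median of 8 distal peaks over all protein-coding genes in that library. Replicate 2 alone gave 29 for Tubb2b and 12 for Tubb2a, against a median of 4. Only 7 protein-coding genes of the genome had more than Tuba1a, and the 1 gene with as many, the read-through gene Gm49450, starts 152 bp from it. The counts of neighbours are not separate: 21 peaks belonged to both Tuba1a and Tuba1b, 12 to both Tuba1a and Tuba1c, and 4 to both Tubb2a and Tubb2b.

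Several high-scoring peaks lay just past the 1 kb limit. Just inside it, a Tubb6 peak at 994 bp scored 52 in replicate 1, where it overlapped a replicate 2 peak that scored 28. Just outside it, and so counted as distal, were Tubb2a at 1116 bp with 111 in replicate 1 and 59 in replicate 2, Tubb5 at 1135 bp with 132 and 102, and Tubb2b at −1137 bp with 121 and 72. At the 50 kb limit the outermost peak near Tubb3 lay at −49933 bp with 89 and 71. With the distal set begun at 2500 bp from every start, 55 of the 81 shared distal peaks remained.

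The Tuba1 region (chr15:98884565-99079891) held 78 peaks in replicate 1 and 75 in replicate 2, and 40 shared distal peaks. Tuba1b and Tuba1a lie in the same orientation with starts 19138 bp apart, and Tuba1c lies on the other strand with its start 76188 bp from that of Tuba1a. The shared distal peaks were not spread evenly: 28 of 40 lay between Tuba1a and Tuba1c, 6 between Tuba1b and Tuba1a, 3 before Tuba1b toward Dhh and 3 past Tuba1c toward Prph. By annotation, 21 of the 40 were intergenic, 15 intronic and 4 exonic. Dhh encodes a hedgehog ligand and Prph the neuronal intermediate filament peripherin.

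In the stretch between Tuba1a and Tuba1c the peaks stood in groups. Shared peaks ran on upstream of the Tuba1a promoter, at −1148, −1768, −2108 and −2488 bp of its start. No shared peak followed up to −15508 bp, where the peak scored 132 in replicate 1 and 87 in replicate 2. Further peaks followed to −19488 bp, and another pair at −24288 and −25268 bp. A further group lay over the noncoding transcript 4930578M01Rik and its exons. Its first shared distal peak was at −31128 bp, and its last exon held the distal peak with the highest mean percentile of the region.

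The 3 shared distal peaks of the region with the highest mean percentile over the libraries, and the first of the Tubb3 window, are shown as examples of distal sites beside an α- and a β-tubulin gene. They are on the plus strand of mm10 at chr15:98993136-98993285, chr15:98969136-98969285, chr15:98994016-98994165 and, in an intron of Tubb3, chr8:123412656-123412805, with capitals as above.
Tuba1 distal 1: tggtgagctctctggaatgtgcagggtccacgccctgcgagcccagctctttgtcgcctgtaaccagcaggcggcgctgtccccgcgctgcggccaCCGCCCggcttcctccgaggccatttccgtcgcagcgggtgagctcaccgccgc
Tuba1 distal 2: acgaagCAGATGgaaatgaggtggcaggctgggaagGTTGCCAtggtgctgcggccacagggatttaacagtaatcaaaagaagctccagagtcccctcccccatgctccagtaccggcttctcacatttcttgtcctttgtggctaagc
Tuba1 distal 3: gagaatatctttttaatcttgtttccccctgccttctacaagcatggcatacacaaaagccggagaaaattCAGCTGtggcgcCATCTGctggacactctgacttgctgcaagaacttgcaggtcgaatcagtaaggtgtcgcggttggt
Tubb3 distal 1: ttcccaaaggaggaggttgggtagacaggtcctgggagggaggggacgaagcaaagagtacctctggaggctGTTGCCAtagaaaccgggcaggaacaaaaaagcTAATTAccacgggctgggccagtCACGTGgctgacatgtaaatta

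The first, in the last exon of 4930578M01Rik at −36680 bp of the Tuba1c start, scored 122 in replicate 1 and 103 in replicate 2. It had 70.0% G and C and a GC box, where the median was 50% for distal and 62.0% for promoter peaks. The intergenic peak at −15508 bp of Tuba1a held CAGATG and GTTGCCA. The third, in the same exon, scored 105 in replicate 1 and 90 in replicate 2 and held the E-box CAGCTG and, in reverse, the E-box CAGATG. The Tubb3 peak, 1307 bp past the Tubb3 start at chr8:123411424, scored 106 and 63 and held the RFX motif GTTGCCA, the homeodomain motif TAATTA and the E-box CACGTG. It lay just past the promoter limit, 1141 bp from the nearer Tubb3 start, inside a hotspot that reaches the promoter window in both libraries.

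Over all 40 distal peaks of the Tuba1 region, CAGATG stood in 8 (20%) and CAGCTG in 6 (15%), against 17.7% and 16.6% of the 81031 shared distal peaks. The GC box stood in 5 of 40 (12.5%), against 6.12%. CCAAT stood in 2 of 40 (5%), against 20.1%. The NFI, homeodomain and RFX motifs stood in 1 each (2.50%), against 16.2%, 6.85% and 4.98%. The median G and C content was 52.3%.

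**Figure D2:**
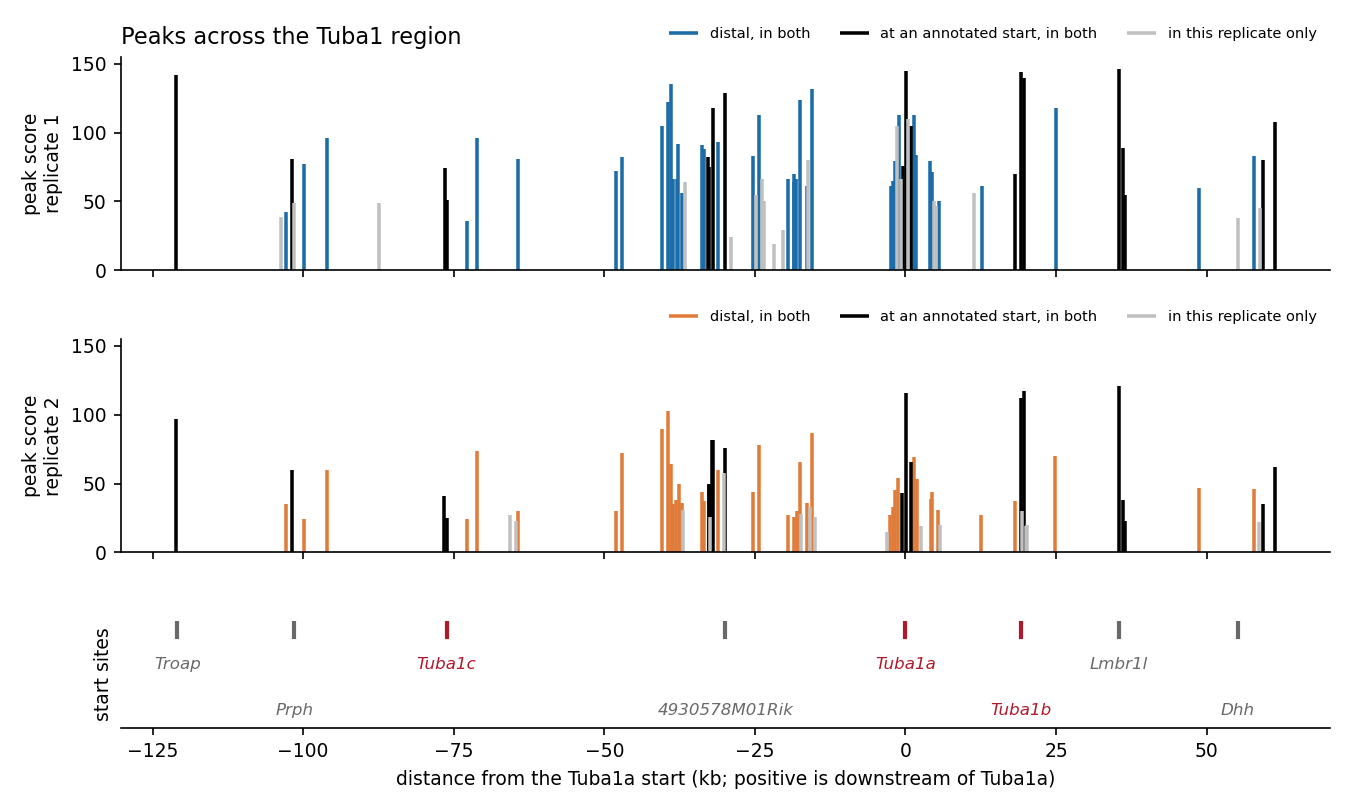
Peak score (height) against distance from the Tuba1a start in kb, positive being downstream of Tuba1a, in replicate 1 (upper) and replicate 2 (middle). Coloured lines are shared distal peaks, black lines shared peaks at an annotated start and grey lines peaks of 1 library; the lower strip marks the starts of the 3 Tuba1 genes (red) and of 5 neighbours. Most of the 40 shared distal peaks stand between Tuba1a and Tuba1c, in groups upstream of Tuba1a and over 4930578M01Rik.

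Other genes start in the region and take part of its peaks. Lmbr1l, a membrane receptor gene between Dhh and Tuba1b, had a promoter peak that scored 146 in replicate 1 and 121 in replicate 2, above those of the Tuba1 genes. Prph scored 81 and 60, and Troap, at the far edge, 142 and 97. Dhh had a promoter peak of 38 in replicate 1 and none in replicate 2. Which gene a distal peak serves is not given by distance, and it was not tested.

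The Tubb2a-Tubb2b region (chr13:34028007-34180354) held 45 peaks in replicate 1 and 51 in replicate 2, and 21 shared distal peaks, 13 of them intergenic. The starts lie 52347 bp apart on the same strand. A group stood upstream of Tubb2b, between it and Psmg4, a proteasome assembly gene. There the first shared peak at −18697 bp scored 130 in replicate 1 and 76 in replicate 2, the highest mean percentile of the region's shared distal peaks. Close to it, at −18937 bp, a replicate 2 peak that overlapped no replicate 1 peak scored 87. The group ran to −26637 bp with 8 more shared peaks at scores from 57 to 103 in replicate 1 and from 28 to 72 in replicate 2.

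Tubb2b also had shared peaks beside its promoter, at −1137 bp (121 and 72) and −1557 bp (122 and 74), inside the same long hotspot. Tubb2a had fewer sites of its own. The second of the region by percentile lay 31416 bp past Tubb2a in an intron of Bphl, a hydrolase gene, with 105 in replicate 1 and 86 in replicate 2. A peak in the first intron of Tubb2a, at 1116 bp, scored 111 and 59. The starts of Tubb2b and Tubb2a differ in both readouts, with 146 and 126 in replicate 1, 123 and 99 in replicate 2, and 18 and 7 shared distal peaks.

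**Figure D3:**
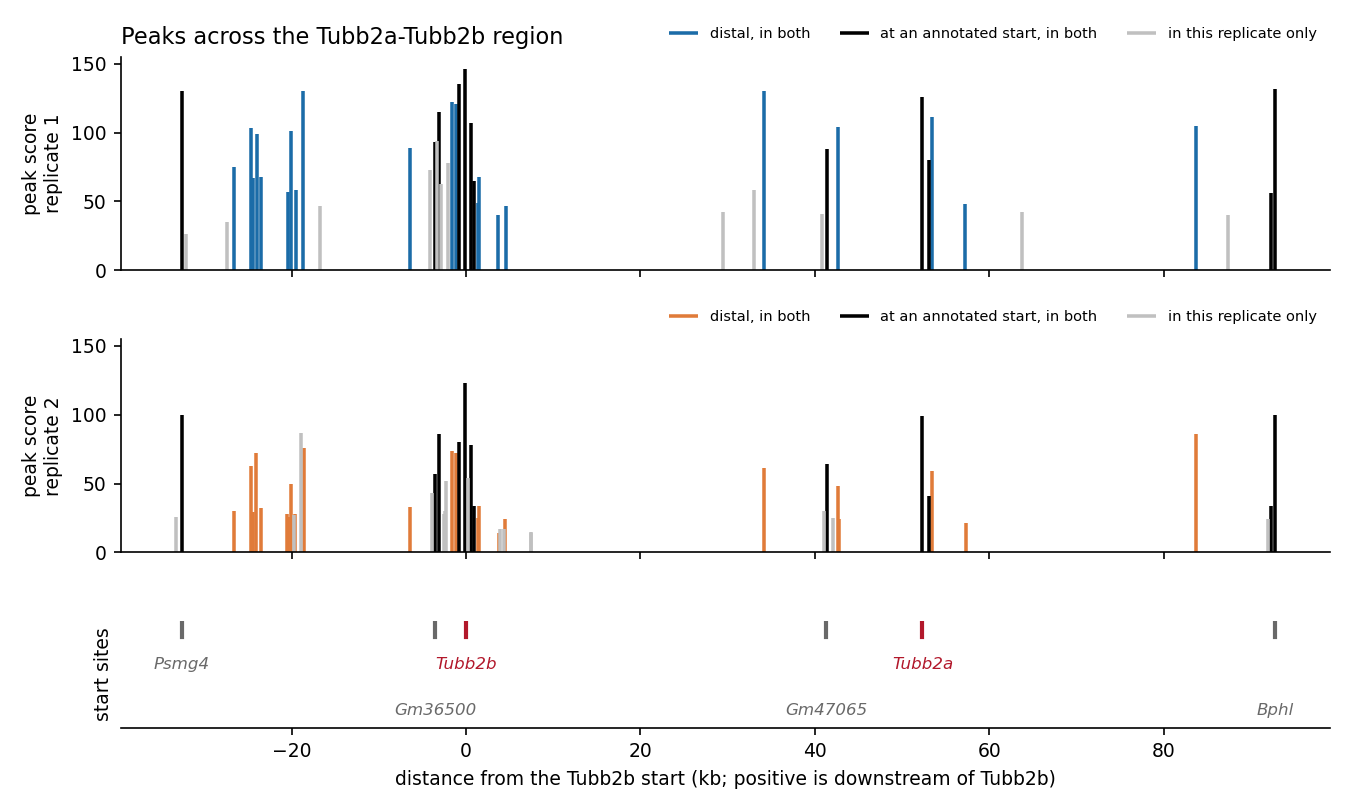
Peak score against distance from the Tubb2b start in kb, positive being downstream of Tubb2b, drawn as in the map of the Tuba1 region. A group of shared distal peaks stands upstream of Tubb2b toward Psmg4, and a few single ones stand around Tubb2a.

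The 4 genes that stand alone had fewer sites. The window of Tubb3 held 27 peaks in either library and 9 shared distal peaks, 8 intronic and 1 in an exon of its neighbour Mc1r, the melanocortin receptor gene. Of these, 6 lay from 1307 to 11207 bp past the Tubb3 start, over the gene and past its end, and 1 at −1193 bp. The 2 furthest, at −49933 and −26353 bp, lay in introns of Spire2 and Tcf25. Tcf25 has a promoter of its own that scored 140 in replicate 1 and 118 in replicate 2, and Def8, on the other side, a peak of 126 and 81.

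At Tubb5 the window held 30 peaks in replicate 1 and 27 in replicate 2, many of them at the starts of other genes. Of these peaks, 14 in replicate 1 and 16 in replicate 2 lay at starts such as those of Mdc1, a DNA damage response gene that starts at −3209 bp, Flot1, Ier3, Nrm, Ppp1r18 and Dhx16. The Mdc1 promoter peak scored 147 in replicate 1 and 122 in replicate 2, above that of Tubb5. Of the 6 shared distal peaks, the 2 highest by mean percentile were intronic in Tubb5 itself, at 1135 bp with 132 and 102 and at 1915 bp with 100 and 83. The next, in an exon of Flot1 at 8375 bp, scored 108 and 69, higher than the peak at 1915 bp in replicate 1 and lower in replicate 2.

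Tubb4a had 15 peaks in replicate 1 and 11 in replicate 2 around it. Its 3 shared distal peaks were intronic in other transcripts. A pair at −8469 and −8969 bp, in the noncoding Gm11110, scored 83 and 78 in replicate 1 and 44 and 62 in replicate 2. Slc25a23 and Crb3, neighbours downstream, had promoter peaks of 143 and 131 in replicate 1 and 102 and 84 in replicate 2, while Dennd1c next to Tubb4a had none in either library.

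Around Tubb6 lay 11 peaks in replicate 1 and 6 in replicate 2. The 2 shared distal peaks stood at −20866 bp with 96 in replicate 1 and 50 in replicate 2, and at −26026 bp in an intron of Cidea, a lipid droplet gene, with 98 and 53. Both scored higher than the Tubb6 promoter in their library. Hotspots covered 3.77% of the 50 kb window on both sides of Tubb6 in replicate 1 and 1.355% in replicate 2, the lowest of the 9 genes. Around Tuba1a, the highest, they covered 23.4% and 22.1%.

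Exons of 5 of these genes hold much sequence that occurs elsewhere in the genome. Where the other copies lie was not looked up. A position was called recurring if the 32 bases from it occur more than 1 time in the primary assembly, a length chosen here after the hotspot ends were seen, since the read length is not given in the sources used here. Recurring positions made up 85.9% of the exon bases of Tuba1b, 72.1% of Tuba1a, 65.4% of Tuba1c, 59.7% of Tubb2b and 57.0% of Tubb2a. Tubb3 had 25.1%, and Tubb5, Tubb6 and Tubb4a had 6.23%, 3.36% and 2.87%. In the 2001 bp around each start the share was at most 12.5%, at Tubb5, and no printed peak held a recurring position.

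Hotspots covered little of the recurring bases. Over the 9 gene bodies, they covered 4.15% of 10410 recurring bases in replicate 1 and 4.04% in replicate 2, and 29.1% and 24.2% of 46999 single-copy bases. Tuba1a showed it most: 2.84% of its recurring bases against 81.1% of its single-copy bases in replicate 1, and 8.45% against 86.8% in replicate 2. In Tuba1b the shares were 2.42% against 55.8% in replicate 1 and 2.42% against 71.7% in replicate 2. The coding exons past the first lie further from the start than the first intron does, and the parts of that distance and of read mapping in this difference were not tested.

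The gaps between hotspots are where recurring sequence was first seen, and the 32-base length was chosen after that, so their counts are a description and support nothing further. Among gaps of at most 50 bp between neighbouring hotspots within 5 kb of the 9 starts, 6 fell on the same bases in both libraries, and all 6 consisted wholly of recurring positions. They were from 1 to 35 bp long, 4 at Tubb2b, 1 at Tuba1b and 1 at Tubb3. A further 18 gaps, counted per library, lacked the same ends in the other library. None of the 18 held a recurring position. Some of them still overlap: at Tuba1a, chr15:98955651-98955689 in replicate 1 and chr15:98955659-98955705 in replicate 2 share bases. The breaks at both ends of the long Tubb2b hotspot, chr13:34129597-34129602 and chr13:34132772-34132791, and that of the Tuba1b hotspots, chr15:98934369-98934403, are among the 6 with the same ends. The counts of hotspots per promoter, 2 in both libraries for Tubb2b and 3 in replicate 1 and 5 in replicate 2 for Tuba1b, include the breaks at chr13:34129597-34129602 and chr15:98934369-98934403.

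**Figure D4:**
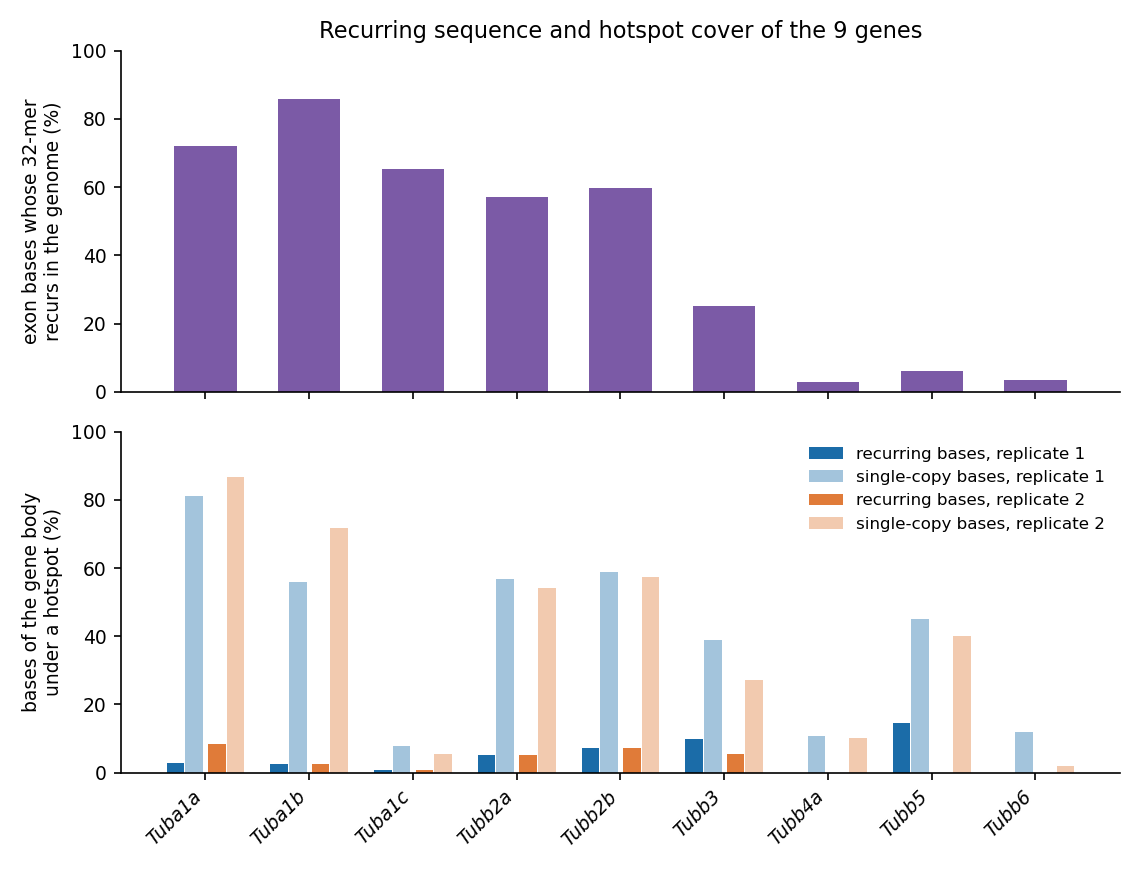
Upper panel: share of the exon bases of each gene at which the 32-base sequence recurs in the primary assembly. Lower panel: share of the recurring bases (dark) and single-copy bases (light) of the gene body under a hotspot, in replicate 1 (blue) and replicate 2 (orange); in each of the 9 genes and both libraries the dark bar is shorter than the light one.

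The libraries shared most of their peaks near these genes. Of 206 peaks in replicate 1, 146 (70.9%) were shared, with a 95% Wilson interval from 64.3% to 76.7%, where 42.4% of all replicate 1 peaks were. Of 197 peaks in replicate 2, 152 (77.2%) were shared, with an interval from 70.8% to 82.5%, where 77.1% of all replicate 2 peaks were. The intervals cover counting error only. Peaks of 1 library were weaker by median: their scores had medians of 43 in replicate 1 and 25 in replicate 2, and shared peaks had medians of 89 and 50. Some were strong, with a highest score of 115 in replicate 1 and 87 in replicate 2. Of the peaks found in 1 library, 8 of 60 in replicate 1 and 13 of 45 in replicate 2 held a recurring position, against 15 of 146 and 12 of 152 shared peaks.

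The order of scores agreed closely between the libraries. Across the 146 shared peaks of replicate 1 near the 9 genes, Spearman's rho between the paired scores was 0.924 and Pearson's r 0.912. Across the strongest promoter peaks of the 9 genes, rho was 0.787 and r 0.979. Peaks are not independent samples, and these coefficients describe 2 libraries. Among the top 6 genes the order is not stable, since Tubb3 tied for first with Tubb2b in replicate 1 but stood behind Tubb2b, Tubb5, Tuba1b and Tuba1a in replicate 2.

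The other 11 tubulin genes of the annotation were measured in the same way. A shared promoter peak stood at 7 of 11 (63.6%), close to the 64.6% of all protein-coding genes: Tuba4a, Tuba8, Tubb4b, Tubg1, Tubg2, Tubd1 and Tube1. Tubb4b, a broadly used β-tubulin of cilia, scored 146 in replicate 1 and 126 in replicate 2, and Tubg1, the γ-tubulin that nucleates microtubules, 147 and 123, at or above all 9 genes. At Tuba8 the strongest replicate 1 peak, 15 bp past the start, scored 67 and overlapped no replicate 2 peak. The shared Tuba8 peak lay at 355 bp in replicate 1 with a score of 51, and at 375 bp in replicate 2 with 28. Tuba3b, a testis α-tubulin, Tubal3, and Tubb1, the β-tubulin of platelets, had no promoter peak in either library, and Tuba3a had 1 of score 27 in replicate 1. Their shared distal peaks ranged from 1 to 9 with a median of 3, against 2 to 33 with a median of 9 for the 9 genes.

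Genes that work on tubulin were taken from lists chosen with these data known. All 15 genes of tubulin folding and tail modification had a shared promoter peak, where 64.6% of all protein-coding genes did, with 1 to 14 shared distal peaks and a median of 4. The most were near Tbcc, a folding cofactor, with 14, Vash1, a detyrosinating enzyme, with 12, and Atat1, which acetylates α-tubulin, with 7. All 17 genes for microtubule proteins of neurons had such a peak too, with 1 to 22 shared distal peaks and a median of 11. Map2, which binds microtubules in dendrites, had 22, Map1b 16, and Map6 and Dpysl3 14 each. Map1a, with a promoter at the 99.9th percentile in replicate 1 and the 99.6th in replicate 2, had 1, so a strong promoter and a dense surrounding did not go together in every gene.

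Beyond these genes, replicate 1 held 263679 peaks with a median score of 47 and replicate 2 held 148804 with a median of 30, all 150 bp wide, and the sequencing depth is not given in the files. Markers, from lists chosen with earlier results of these data known, were read at their promoters beside the label. A shared promoter peak stood at 6 of 6 markers of neurons, 5 of 5 of neural progenitors and 8 of 8 of hindbrain. Of all protein-coding genes, 64.6% had one. Such a peak also stood at 3 of 12 markers of other cells and tissues. These were both meningeal markers of the list, Col1a1 and Foxc1, and Dazl, a germ line marker. The erythroid, microglial, endothelial and liver markers of that list had no shared promoter peak, and neither had Tex101, also of the germ line. Tissue holds many cell types, and fewer cells with an open site cannot be told apart from less cutting per cell.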

How the data were processed

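DNase-seq peaks and hotspots of 2 libraries from hindbrain of 14.5-day mouse embryos were used. Per the deposited text files, the authors derived them separately for each biological replicate from filtered alignments to mm10. For aligner, caller, thresholds and read length, nothing is given in the sources used here. Each deposited peak list holds a score per 150 bp peak, and each deposited hotspot list the −log10 of a q-value, capped at 100. Read counts were not used, so the depth is unknown and no depth-based limit is given.

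Peaks were placed by their midpoint against GENCODE M21 basic starts, with windows of 1 kb and 50 kb. Peaks were shared if they overlapped by at least 1 bp, and each was counted once per region. Percentiles rank a peak's score within its library. Recurring 32-base sequences were counted on both strands of the chromosomes and unplaced contigs of GRCm38.p6, without patches and alternate loci, and sequences and motifs were read from the same assembly. Sequences were printed for genes in the RefSeq promoter table of that build. Overlap and counting code was tested on simulated data against exhaustive search.

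The genes, lists and motifs were chosen with earlier results of these data known. Named were the 9 genes, the 11 other tubulin genes, the genes with the most and fewest distal peaks of a list, the 3 strongest shared distal peaks of a region, and genes starting in a window. Further peaks described by position were picked after their values were seen. The labels give 1 group, so the fixed design holds no test. Alternative windows, overlaps, score limits and single libraries were tried. Python 3.11.15, numpy 2.4.6, pandas 2.3.3, numba 0.67.0, scipy 1.17.1 and matplotlib 3.10.9 were used.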

Additional observations from a re-analysis of the deposited data

How the results depend on the processing

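All 9 genes kept a shared promoter peak under the settings that could lose one: a promoter window of 500 bp, 50% overlap, and peaks above each library's median score. Taking only 5′-most starts changes nothing for genes with 1 start, and Tubb3, the only one of the 9 with 2, kept its peak. A window of 2500 bp, placement by any overlap and either library alone can only add genes, so their counts of 9 say nothing about stability. Under all these settings the other tubulins with a promoter peak numbered from 6 to 8, against 7 of 11. Distal counts follow the window: the 81 shared distal peaks became 48 within 20 kb and 126 within 100 kb, the 40 of the Tuba1 region became 22 within 20 kb, and the 21 of the Tubb2a-Tubb2b region became 13. Taking either library alone gave from 108 to 124 distal peaks for the 9 genes and from 28 to 32 for the Tubb2a-Tubb2b region. The share of replicate 2 peaks that overlap a replicate 1 peak, 77.2%, was 68.5% under 50% overlap and 89.1% among peaks above the median score. Of 72 distal counts of single genes under an alternative, 49 stayed within 1.5 times and 23 moved more. No paired analysis was possible because there is 1 group and no result comes from a test. With 2 libraries of 1 tissue, no depth and a score of unknown scale, the values describe these libraries, and a weak site missed in 1 of them was not detectable there.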
